A study of Mus musculus with 8 samples.

Results

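Fatty acid synthesis, chain elongation and desaturation were examined through 10 listed genes in Ly6C-high myeloid cells sorted from irradiated and sham-treated tumours. The listed genes were Acaca, Fasn, Elovl1, Elovl5, Elovl6, Elovl7, Scd1, Scd2, Fads1 and Fads2. A gene was taken where the platform annotation gave a probe set row exactly 1 symbol, and where a symbol had several rows the one with the highest mean over all 8 arrays was kept. This left 9 of the 10 genes, each with a single row, among 22180 genes in all. The row of Scd2 carries a second symbol, Mir5114, and was not used. The genes were chosen with results of these arrays already known, the list having been chosen by the difference between irradiated and sham mice in part and its rows selected on the mean level over the 8 arrays, so the values between the groups are given as a description.

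The irradiated group was 4 female C57BL/6 mice, 8 weeks old, whose subcutaneous tumours had received 20 Gy on a small animal irradiator. The sham group was 4 mice of the same strain, sex and age that received a sham treatment. All tumours were grown for 14 days from the single cell line 152, which came from the spontaneous tumours of KPC mice, carriers of the alleles KrasLSL-G12D/+ and Trp53LSL-R172H/+ and of Pdx1-Cre, whose Cre acts in the pancreatic lineage, so that both groups carried tumour cells of the same genotype under the skin and not in the pancreas. Tumours were harvested 1 day after treatment, and CD45+ CD11b+ Ly6Chi cells, the surface profile of inflammatory monocytes and macrophages, were sorted from each mouse for 1 Affymetrix array.

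Cells build fatty acids from acetyl-CoA. Acetyl-CoA carboxylase, encoded by Acaca, makes malonyl-CoA, and fatty acid synthase, encoded by Fasn, uses it to make palmitate. Elongases of the ELOVL family then lengthen the chain, and the desaturases SCD1, FADS1 and FADS2 put in double bonds. Many of these genes are textbook targets of the transcription factor SREBP-1, itself a target of the liver X receptors. In monocytes and macrophages the products feed membrane phospholipids and the polyunsaturated precursors of prostaglandins and leukotrienes.

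The promoter stretches of Elovl6, Fasn and Elovl5 are shown here because Elovl6 had the largest difference between the groups among the 9 genes, Fasn the smallest, and Elovl5 held matches to both an E-box and CCAAT boxes. They are the 250 bases before an annotated start of each gene in GRCm38.p6. They lie at chr3:129532136-129532385 on the plus strand for Elovl6, chr11:120824548-120824797 on the minus strand for Fasn and chr9:77917115-77917364 on the plus strand for Elovl5. The Elovl6 and Elovl5 stretches end at the edge of the gene's RefSeq range. The Fasn stretch lies inside that range, which reaches 120825166, so it precedes an inner start. Capitals mark matches on either strand to TCACNCCAC (a sterol regulatory element), CACGTG (an E-box), CCAAT or GGGCGG (a GC box).
Elovl6: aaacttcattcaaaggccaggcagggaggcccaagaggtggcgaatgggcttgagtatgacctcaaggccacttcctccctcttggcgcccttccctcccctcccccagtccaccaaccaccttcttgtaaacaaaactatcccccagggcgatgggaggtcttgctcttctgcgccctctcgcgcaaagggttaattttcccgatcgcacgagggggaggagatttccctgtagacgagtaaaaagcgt
Fasn: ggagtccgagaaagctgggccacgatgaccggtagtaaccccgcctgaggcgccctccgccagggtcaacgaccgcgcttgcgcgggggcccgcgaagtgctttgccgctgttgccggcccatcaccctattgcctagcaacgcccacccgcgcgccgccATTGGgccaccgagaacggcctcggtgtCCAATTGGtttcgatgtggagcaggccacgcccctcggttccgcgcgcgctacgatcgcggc
Elovl5: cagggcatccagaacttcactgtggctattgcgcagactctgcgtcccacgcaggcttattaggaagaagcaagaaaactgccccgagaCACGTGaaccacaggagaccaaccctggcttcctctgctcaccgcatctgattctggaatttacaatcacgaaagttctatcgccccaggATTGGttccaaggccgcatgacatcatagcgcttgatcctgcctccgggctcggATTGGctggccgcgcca
The Elovl6 stretch held none of the 4 motifs. The Fasn stretch held CCAAT at 3 positions, starting 90, 62 and 59 bases before the start, the last 2 overlapping on opposite strands. The Elovl5 stretch held CACGTG starting 161 bases before the start and CCAAT on the reverse strand at 2 positions, 71 and 17 bases before it. A promoter sequence was found for 7 of the 10 listed genes, in 8 stretches since Elovl1 has 2. TCACNCCAC was in none of the 8, and in 1.05% of all 32851 stretches of this length. CCAAT was in 33.8% of all stretches, CACGTG in 6.02% and GGGCGG in 32.7%. These are matches of letters in one window and do not show binding. The stretches of Acaca and Elovl1, and part of that of Elovl7, also lie inside the RefSeq ranges of their genes. Other starts of the genes were not searched.

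All 9 genes stood lower on average in irradiated mice than in sham mice, with a median difference of -0.22 on the log2 scale against -0.03 over all 22180 genes. The median was -0.34 without sham mouse 1, and without sham mice 2 and 3 it was -0.13 with 7 of the 9 lower. Of all genes, 57.8% had a difference below 0. No gene passed an adjusted p of 0.05 in limma (percent called 0; 1347 genes, 6.07%, had an unadjusted p under 0.05), and the 9 genes had adjusted p from 0.673 for Elovl6 to 0.946 for Fasn. At an unadjusted p under 0.05 in limma 2 of the 9 were lower, Elovl6 and Acaca, and 0 higher, where 4.03% of all genes were lower and 2.05% higher at that level. The 4 irradiated arrays lay below the 4 sham arrays for 3 of the 9, Elovl1, Elovl6 and Acaca, where 2.56% of all genes did so and 3.68% showed no overlap in either direction. Because the genes were picked with this comparison known, nothing is read from these counts. In RNA from sorted cells, a smaller share of the cells that express a gene cannot be told apart from less RNA per cell.

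**Figure D1:**
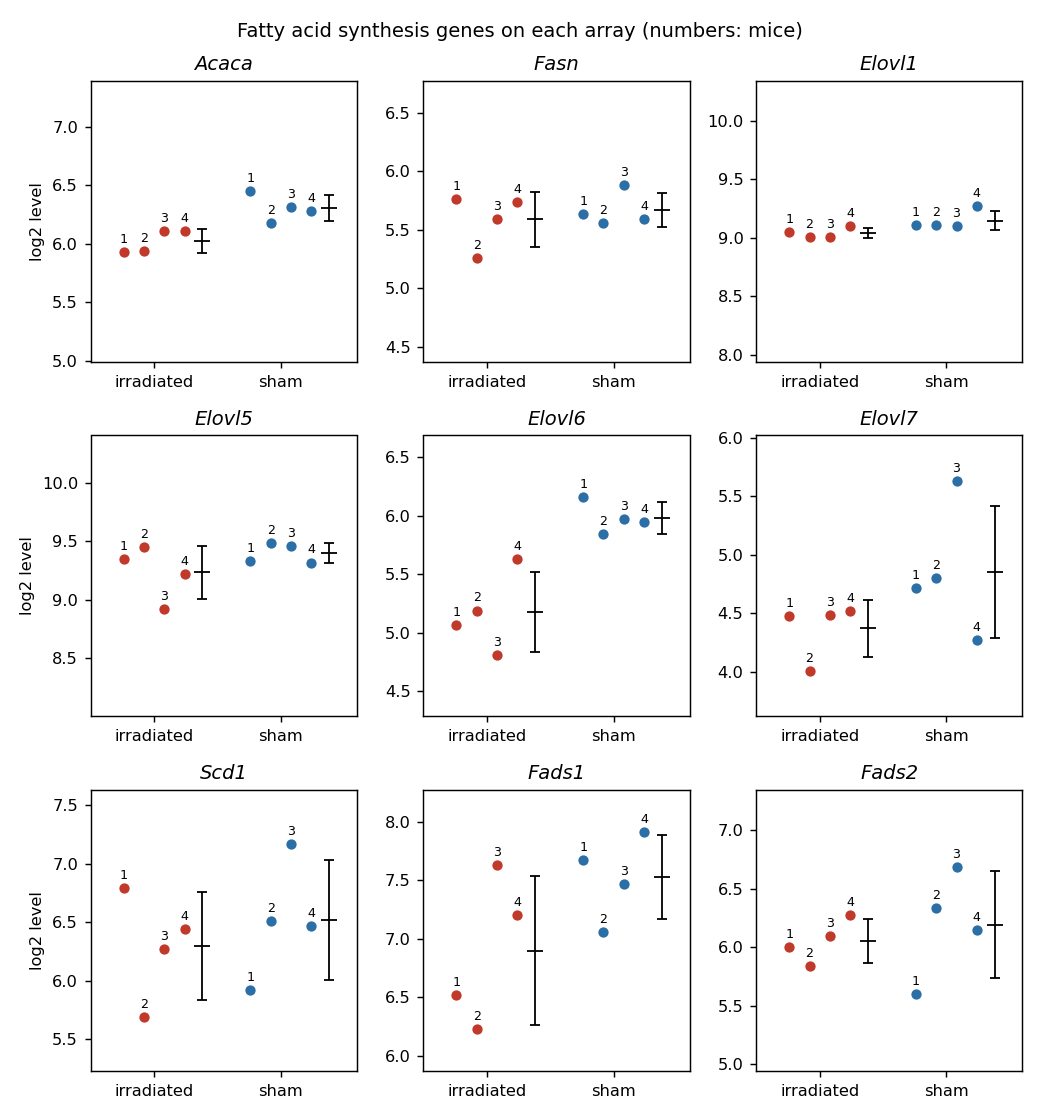
Log2 level of each of the 9 genes on each array, with irradiated mice left (red) and sham mice right (blue), numbers giving the mouse and black bars the mean ± SD of 4 mice; every panel spans the same height on the log2 axis. Elovl6 shows the widest gap between the groups, while Scd1, Fads1 and Elovl7 vary widely within a group.

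Sham mouse 3 had the highest levels of many markers of other cells. The lists of T and NK cell, B cell, neutrophil, tumour epithelium and fibroblast markers, 5 of 8 lists of other cell types, had their highest mean on that array, and those of dendritic cells, adipocytes and endothelium did not. Of the sorted cells' own markers, Ptprc (CD45) ranged from 11.50 to 11.71 on the log2 scale in irradiated mice and from 11.60 to 11.71 in sham mice. Ly6c2 ranged from 10.77 to 12.45 in irradiated mice and from 11.03 to 11.98 in sham mice. The mean of 13 T and NK cell markers was 6.71, 5.23, 5.30 and 6.71 in irradiated mice 1 to 4, against 5.26, 7.60, 7.79 and 5.71 in sham mice 1 to 4. Values without sham mouse 3, or without sham mice 2 and 3, which were highest in this list, are given where they move a difference by over 1.5 times.

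The gene that commits acetyl-CoA to fatty acid synthesis, Acaca, was lower in each irradiated mouse. It stood at 5.93, 5.94, 6.11 and 6.11 in irradiated mice 1 to 4, against 6.45, 6.18, 6.31 and 6.28 in sham mice 1 to 4. The groups did not overlap, but the lowest sham array lay only 0.068 above the highest irradiated array. The mean was 6.02 ± 0.10 in irradiated mice and 6.31 ± 0.11 in sham mice (SD, n = 4 each). They differed by -0.28 (95% interval -0.51 to -0.06; adjusted p = 0.819 in limma). The difference lay between -0.34 and -0.23 with each array left out, sham mice 2 and 3 left out together or any other setting tried, so no single array set it. Fasn, which encodes the next enzyme, stood at 5.76, 5.26, 5.59 and 5.74 in irradiated mice, against 5.63, 5.56, 5.88 and 5.59 in sham mice, and the groups overlapped. Irradiated mouse 2 was the lowest and sham mouse 3 the highest. The Fasn difference was -0.08 (95% interval -0.37 to 0.22; adjusted p = 0.946 in limma), and it was 0.03 without irradiated mouse 2, 0.00 without sham mouse 3, -0.02 without sham mice 2 and 3 and -0.13 without irradiated mouse 1. The difference between Acaca and Fasn was not tested, and the interval of Fasn includes the value of Acaca.

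The elongases differed from one another in size and in spread. Elovl6, which lengthens palmitate to stearate, had the largest difference of the 9 genes. Its levels were 5.07, 5.19, 4.81 and 5.63 in irradiated mice 1 to 4, against 6.16, 5.84, 5.97 and 5.95 in sham mice 1 to 4. Irradiated mouse 4 was the highest of its group and still lay 0.21 below the lowest sham mouse. The mean was 5.17 ± 0.34 in irradiated mice and 5.98 ± 0.14 in sham mice (SD, n = 4 each), so that the level after irradiation was 0.572 of that in sham mice. The lowest irradiated value, 4.81, lay close to 4.70, the median of all probe sets, so the size of this ratio is uncertain. The difference of -0.81 (SE 0.16, 95% interval -1.17 to -0.44) had the rank 19 by p among all genes and an adjusted p of 0.673 in limma, which does not pass. A difference of at least this size in either direction was seen for 93 genes, 0.419% of all. Leaving out irradiated mouse 4 gave -0.96 and leaving out irradiated mouse 3 gave -0.69, the extremes over the 8 arrays, and the value was -0.88 without sham mice 2 and 3.

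Elovl1, which makes saturated and monounsaturated very long chains, also showed no overlap, but by a margin of 0.006. It stood at 9.05, 9.01, 9.01 and 9.10 in irradiated mice, against 9.11, 9.11, 9.10 and 9.27 in sham mice. All arrays but sham mouse 4 lay close together, and the pooled SD of 0.06 was in the lowest 1.5% of genes. The difference was -0.11 (95% interval -0.31 to 0.09; adjusted p = 0.885 in limma) and -0.07 without sham mouse 4. After quantile normalization or subtraction of the array medians the Elovl1 groups overlapped.

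Elovl5, an elongase of polyunsaturated chains, stood at 9.35, 9.45, 8.92 and 9.22 in irradiated mice, against 9.33, 9.49, 9.46 and 9.32 in sham mice. Irradiated mouse 3 stood apart on the low side and irradiated mouse 4 also lay under the sham range, while irradiated mice 1 and 2 lay inside it. Its difference of -0.17 (95% interval -0.45 to 0.11; adjusted p = 0.870 in limma) was -0.06 without irradiated mouse 3 and -0.09 without sham mice 2 and 3. Elovl7, a further elongase gene, stood at 4.48, 4.01, 4.49 and 4.52 in irradiated mice, against 4.72, 4.80, 5.63 and 4.27 in sham mice. Its mean of 4.62 over the 8 arrays lies under 4.70, the median of all probe sets, so its level may be near the background of the array and the size of its difference is uncertain. The groups overlapped, and sham mouse 3 stood apart on the high side. The difference of -0.48 (95% interval -1.04 to 0.08; adjusted p = 0.822 in limma) was -0.23 without sham mouse 3 and -0.13 without sham mice 2 and 3.

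**Figure D2:**
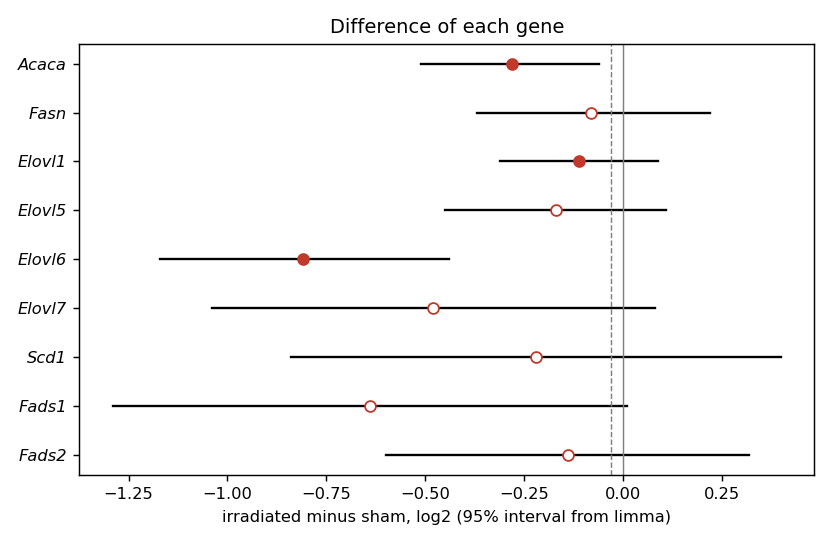
Difference between irradiated and sham mice for each of the 9 genes on the log2 axis, with 95% intervals from limma; filled points mark genes whose 4 irradiated arrays lie below the 4 sham arrays, the solid line is 0 and the dashed line the median of all genes, -0.03. All 9 points lie left of 0, and the intervals of Elovl6 and Acaca do not reach it.

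The desaturases varied more within a group than the elongases Elovl1, Elovl5 and Elovl6. The pooled SD was 0.49 for Scd1, 0.52 for Fads1 and 0.35 for Fads2, against a median of 0.19 over all genes. Fads1, which encodes the desaturase that makes arachidonate, stood at 6.52, 6.23, 7.63 and 7.20 in irradiated mice 1 to 4, against 7.67, 7.06, 7.47 and 7.91 in sham mice 1 to 4. Irradiated mice 1 and 2 lay below every sham mouse, and irradiated mice 3 and 4 within the sham range. The mean was 6.89 ± 0.64 in irradiated mice and 7.53 ± 0.36 in sham mice (SD, n = 4 each). The difference was -0.64 (95% interval -1.29 to 0.01; adjusted p = 0.822 in limma), and it was -0.42 without irradiated mouse 2 and -0.90 without sham mice 2 and 3, when the groups did not overlap.

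Among the 9 genes, Acaca, Elovl7 and Fads2 were also lower in irradiated mice 1 and 2 than in irradiated mice 3 and 4, by smaller gaps than Fads1. The split among irradiated mice in Fads1 was also seen in genes outside the 9, and those given here were named after their values were seen. Mx1, an interferon-induced antiviral gene, stood at 9.02 and 8.56 in irradiated mice 1 and 2, at 7.14 and 6.92 in irradiated mice 3 and 4, and between 6.25 and 6.92 in sham mice. Nr1h3, which encodes the liver X receptor alpha, stood at 7.23 and 7.40 in irradiated mice 1 and 2, at 6.23 and 5.99 in irradiated mice 3 and 4, and between 5.75 and 6.55 in sham mice. Mx1 and Nr1h3 were thus high on the 2 arrays on which Fads1 was low, and their part in the Fads1 values was not tested. Kdr, 1 of 8 measured endothelial markers, was split too, at 6.91, 7.02, 4.03 and 4.55 in irradiated mice 1 to 4. In that list Pecam1 and Tek ran the other way, at 7.41, 7.57, 7.82 and 7.82 and at 2.75, 3.07, 3.15 and 3.66. Cdh5, Tie1, Vwf, Cldn5 and Egfl7 showed no such split. Srebf1, the SREBP-1 gene, was not split, at 6.12, 6.03, 5.98 and 6.17, nor was Scd1. How many of all genes show such a split was not counted.

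Scd1, which encodes the stearoyl-CoA desaturase that makes oleate and palmitoleate, stood at 6.79, 5.69, 6.27 and 6.44 in irradiated mice, against 5.92, 6.51, 7.17 and 6.47 in sham mice. Both groups spanned more than 1 log2 unit, by 1.10 in irradiated mice and 1.26 in sham mice, and overlapped. Its difference of -0.22 (95% interval -0.84 to 0.40; adjusted p = 0.921 in limma) was 0.00 without sham mouse 3, -0.02 without irradiated mouse 2, -0.42 without sham mouse 1, -0.38 without irradiated mouse 1 and 0.10 without sham mice 2 and 3. Fads2, which encodes the desaturase at the entry to polyunsaturated synthesis, stood at 6.00, 5.84, 6.10 and 6.28 in irradiated mice, against 5.60, 6.34, 6.69 and 6.15 in sham mice. Every irradiated mouse lay inside the sham range. The Fads2 difference of -0.14 (95% interval -0.60 to 0.32; adjusted p = 0.934 in limma) was 0.02 without sham mouse 3, -0.09 without sham mouse 2, -0.34 without sham mouse 1, -0.07 without irradiated mouse 2, -0.22 without irradiated mouse 4 and 0.18 without sham mice 2 and 3.

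Scd1 and Fads2 varied between arrays along with markers of several other cell types. The mean of the 10 measured tumour epithelium markers was 6.72, 5.92, 6.36 and 6.46 in irradiated mice 1 to 4, against 6.06, 6.37, 6.94 and 6.11 in sham mice 1 to 4. Both this list and Scd1 were highest in sham mouse 3 and then irradiated mouse 1, and lowest in irradiated mouse 2 and then sham mouse 1. Of the 10 markers 6 were lower and 4 higher in irradiated mice, with a median difference of -0.07. The fibroblast list mean, at 6.36, 5.67, 5.24 and 6.27 in irradiated mice 1 to 4, against 5.03, 5.99, 6.75 and 5.85 in sham mice 1 to 4, was also highest in sham mouse 3 and then irradiated mouse 1. The T and NK cell list given above was highest in sham mouse 3 and then sham mouse 2, and lowest in irradiated mouse 2 and then sham mouse 1. Fads2 had its highest values in the same order as the T and NK cell list, and its lowest in sham mouse 1 and then irradiated mouse 2. The part of RNA from these cells in the Scd1 and Fads2 levels was not tested. The list mean of markers of adipocytes, which also express Scd1 and Fasn, ranged from 4.91 to 5.06 in irradiated mice and from 4.86 to 5.04 in sham mice over 10 measured markers, with Adipoq between 3.97 and 4.25 in irradiated mice and between 3.81 and 4.22 in sham mice. Single markers of that list varied more. Plin1 ranged from 4.63 to 5.07 in irradiated mice and from 4.16 to 4.75 in sham mice, Pparg from 6.09 to 6.89 in irradiated mice and from 6.00 to 6.62 in sham mice, and Pnpla2 from 7.40 to 8.02 in irradiated mice and from 7.33 to 8.24 in sham mice. The part of adipocyte RNA in the levels of Scd1 and Fasn was not tested.

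Elovl7 was highest on the array with the highest neutrophil marker mean. The mean of 12 neutrophil markers was 5.89, 6.57, 7.06 and 6.01 in irradiated mice 1 to 4, against 6.95, 7.16, 8.50 and 6.71 in sham mice 1 to 4, and all 12 markers were lower on average in irradiated mice, with a median difference of -0.78. The granule gene Camp stood between 3.08 and 3.69 in irradiated mice, against 3.08, 8.02, 10.10 and 3.34 in sham mice 1 to 4. Ngp ran like Camp, while Cxcr2 and S100a8 of the same list did not. Cxcr2 stood at 6.32, 9.05, 10.04 and 6.69 in irradiated mice 1 to 4, against 9.72, 6.95, 7.40 and 9.35 in sham mice 1 to 4. S100a8 ranged from 9.77 to 12.31 in irradiated mice and from 11.37 to 12.21 in sham mice. Within sham mice Elovl7 had the same order as the neutrophil list. The B cell list, at 6.26, 6.41, 6.67 and 5.84 in sham mice 1 to 4, had that order too. Within irradiated mice Elovl7 followed neither list, being lowest in mouse 2. The part of RNA from neutrophils, B cells or other cells in the Elovl7 values was not tested. Without sham mice 2 and 3 the differences were -0.88 for Elovl6, -0.34 for Acaca and -0.90 for Fads1. The neutrophil list mean was 6.95 and 6.71 in the sham mice then left, 1 and 4. The part of RNA from other cells in these 3 genes was not tested.

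**Figure D3:**
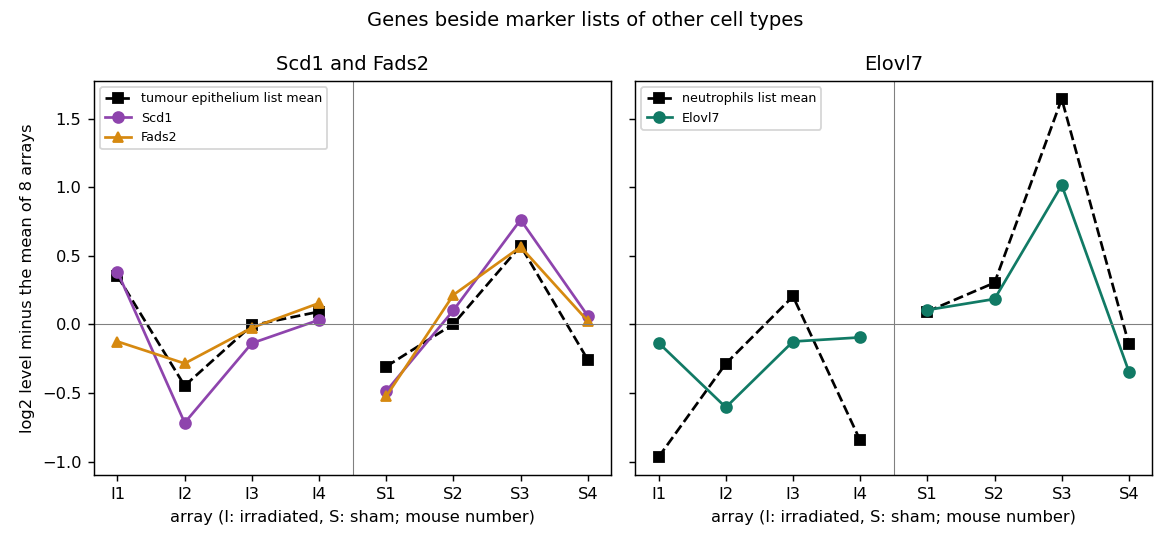
Scd1 and Fads2 beside the mean of the tumour epithelium markers (left) and Elovl7 beside the mean of the neutrophil markers (right), as log2 level minus the mean of the 8 arrays; I and S stand for irradiated and sham with the mouse number, and lines only join the arrays of a group. Scd1 and the epithelial list peak in sham mouse 3 and reach their lowest point in irradiated mouse 2.

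By array, irradiated mouse 2 held the lowest of the 8 values for 5 of the 9 genes, and its median deviation from the sham mean over the 9 genes was -0.40. In irradiated mice 1, 3 and 4 that median was -0.20, -0.19 and -0.18. In the sham mice it ran from -0.06 to 0.06, and sham mouse 3 held the highest value for 4 genes, Fasn, Elovl7, Scd1 and Fads2. The highest value was in a sham mouse for each of the 9 genes, and the lowest in an irradiated mouse for 8, the exception being Fads2 in sham mouse 1. The deviations of the sham mice were taken from their own mean, which places them near 0. The same counts were not made over all genes. Because the 9 genes were also picked with this comparison known, nothing is read from these values and counts.

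The genes most like Elovl6 over the 8 arrays were sought among all genes by the root mean square difference of values centred on each gene's mean. Elovl6 itself had a root mean square deviation of 0.461. The closest was Kynu, the kynureninase gene of tryptophan breakdown, at 0.199, with 6.06 ± 0.18 in irradiated mice and 6.63 ± 0.11 in sham mice (SD, n = 4 each). The keratin gene Krt80 followed at 0.210 and the vomeronasal receptor gene Vmn2r23 at 0.212. Krt80 stood at 6.80 ± 0.25 in irradiated mice and 7.35 ± 0.11 in sham mice, without overlap. Vmn2r23 averaged 3.04 over the 8 arrays, far under the probe set median of 4.70, so its likeness rests on dim values.

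Around the 9 genes, 8 lists of other genes of fatty acid metabolism were described, of whose 108 genes 100 were measured. Of these 65 were lower and 35 higher in irradiated mice, and 0 passed the adjusted p in limma, with 6 lower and 3 higher at an unadjusted p under 0.05. Of all genes, 57.8% were lower, which is the share to set beside each list count below. At an unadjusted p under 0.05 in limma 4.03% of all genes were lower and 2.05% higher. The groups did not overlap for 5 lower and 2 higher genes, where 2.56% of all genes were lower and 1.12% higher without overlap. The list medians ran from -0.14 for fatty acid oxidation to 0.00 for acetyl-CoA and NADPH supply, against -0.03 over all genes.

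The enzymes that complete the elongation cycle with the ELOVL proteins were lower in 6 of 7 cases, with a median of -0.08, where 57.8% of all genes were lower. Tecr, the enoyl-CoA reductase of the cycle, stood at 10.03, 9.81, 9.94 and 10.09 in irradiated mice, against 10.19, 10.31, 10.27 and 10.25 in sham mice. The Tecr groups did not overlap, and the difference was -0.29 (95% interval -0.50 to -0.07; adjusted p = 0.819 in limma). Hacd3, a dehydratase of the cycle, stood at 6.36, 5.83, 6.33 and 6.15 in irradiated mice, against 6.75, 6.39, 6.57 and 6.38 in sham mice, also without overlap (-0.35; adjusted p = 0.819 in limma). Of the other elongases, desaturases and the second carboxylase gene Acacb, 5 of 10 were lower, with a median of -0.01, and 6 of the 10 averaged under the probe set median. In that list Fads6, a desaturase-like gene, had a difference of -0.22 and the elongase gene Elovl3 one of -0.17, with adjusted p of 0.827 and 0.855 in limma. The Fads6 difference was -0.14 without sham mouse 2.

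Of the regulators, 9 of 16 were lower and 7 higher, with a median of -0.04. The transcript of Srebf1, which encodes SREBP-1, stood at 6.08 ± 0.08 in irradiated mice and 6.07 ± 0.07 in sham mice (SD, n = 4 each). These differed by 0.01 (95% interval -0.20 to 0.22). Insig1, which encodes a protein that retains SREBP in the endoplasmic reticulum and is itself an SREBP target, had a difference of -0.02 (95% interval -0.35 to 0.30). The transcripts measured here do not report how much SREBP protein is cleaved. Thrsp, a lipogenic factor gene, was higher in each irradiated mouse, at 4.04 ± 0.09 in irradiated mice and 3.74 ± 0.07 in sham mice, with a difference of 0.30 (adjusted p = 0.819 in limma) at levels under the probe set median. Mlx, which encodes the partner of the glucose-responsive factor ChREBP, had a difference of -0.28 (adjusted p = 0.819 in limma).

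In acetyl-CoA, malonyl-CoA and NADPH supply 5 of 10 genes were lower and 5 higher. Acly, which encodes the ATP citrate lyase that supplies acetyl-CoA, had a difference of 0.07 (95% interval -0.20 to 0.34). The mitochondrial malic enzyme gene Me2 had a difference of -0.39 and the pentose phosphate gene Taldo1 one of -0.24, each with an adjusted p of 0.822 in limma. Without irradiated mouse 2 the Me2 difference was -0.25 and without irradiated mouse 4 that of Taldo1 was -0.16, and Me2 stood at -0.26 without sham mice 2 and 3. Among genes of mitochondrial fatty acid synthesis 4 of 8 were lower, and Ndufab1, the mitochondrial acyl carrier protein gene, and Lipt2, a lipoate pathway gene, had differences of 0.16 and -0.15. The Ndufab1 difference was 0.09 without sham mouse 3. That of Lipt2 lay between -0.23, when irradiated mouse 4 was left out, and -0.07, when irradiated mouse 2 was left out, with -0.09 and -0.08 when sham mouse 1 or sham mouse 3 was.

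Downstream of synthesis, 14 of 21 genes of fatty acid activation and glycerolipid assembly were lower, with a median of -0.04. For this and the 2 lists that follow, 57.8% of all genes were lower. Lpcat4, which encodes an enzyme that adds an acyl chain to lysophospholipids, stood at 6.54, 6.58, 6.55 and 6.45 in irradiated mice, against 7.16, 6.91, 7.22 and 7.13 in sham mice. The irradiated mice lay close together and all below the sham mice, and the difference of -0.57 (SE 0.10) had the rank 4 by p among all genes, with an adjusted p of 0.545 in limma. Acsl6, an acyl-CoA synthetase gene, was higher without overlap, by 0.22, at levels under the probe set median, and by 0.08 when the mean of its rows was taken. In fatty acid oxidation 14 of 18 genes were lower, led by Hadh (-0.48) and Cpt2 (-0.26), a dehydrogenase and a carnitine palmitoyltransferase, both at an adjusted p of 0.819 in limma. In uptake and binding 8 of 10 were lower, with Slc27a4, a transport protein gene, at -0.43 and Fabp4, a fatty acid binding protein gene, at -0.75. Fabp4 stood at -0.43 when sham mouse 3 was left out and at 0.01 without sham mice 2 and 3, and the difference of Slc27a4 was -0.65 without sham mice 2 and 3.

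**Figure D4:**
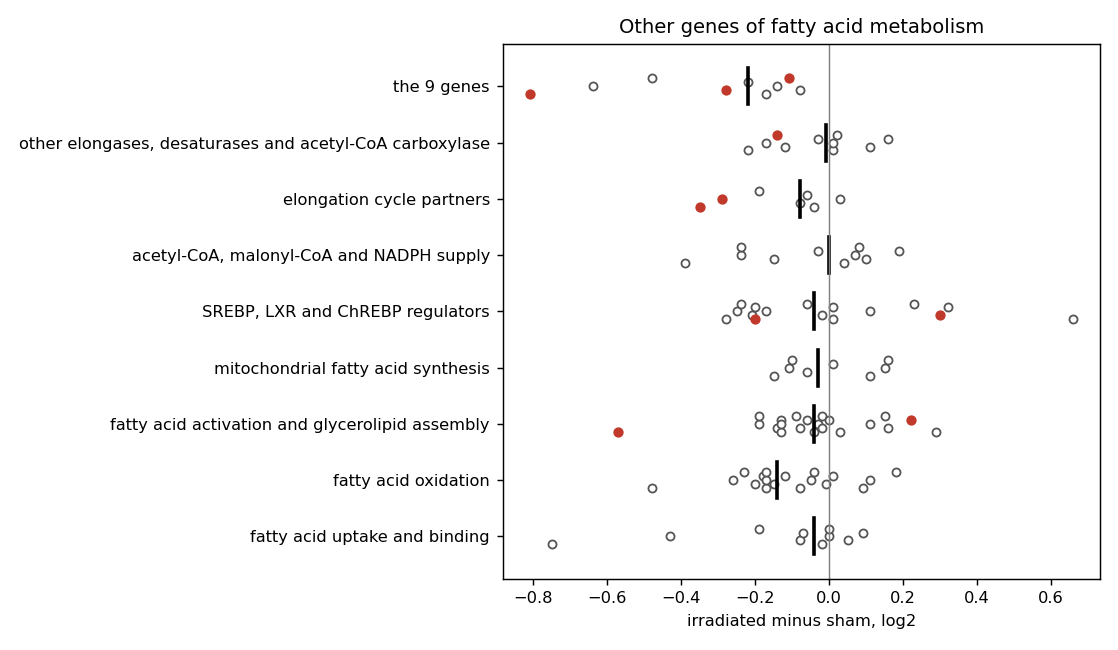
Difference between irradiated and sham mice on the log2 axis for the 9 genes (top row) and for each measured gene of 8 lists of fatty acid metabolism; filled points mark genes whose groups of 4 arrays do not overlap, and black bars the median of each row. The list medians lie between -0.14 and 0.00, to the right of the -0.22 of the 9 genes. The 9 genes were picked with this comparison known, so nothing is read from that gap.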

How the data were processed

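Each array measured RNA of sorted cells from 1 mouse, with 25 ng amplified linearly (ribo-SPIA), per the labels' protocols. The range of the deposited values is that of a log2 scale; the authors used RMA and Partek, per the submitters' processing notes, with steps and versions not given in the sources used here. Array medians lay between 4.68 and 4.73. Of 34365 rows, 23521 had 1 symbol, 1814 several and 9030 none; 22180 genes remained after keeping 1 row per symbol. No dim genes were removed, and no detection calls were used.

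The genes and lists were chosen with earlier results of these data known. limma 3.58.1 in R 4.3.3 compared irradiated with sham mice (lmFit and eBayes, two-sided, Benjamini-Hochberg over all genes, threshold 0.05); it was tested on simulated data. The genes named are all members, the 2 genes of each pathway list with the smallest p, and the 3 most like Elovl6; the same search for Scd2 could not be made. Srebf1, Insig1, Acly, Nr1h3 and Mx1, and the cell type markers given by value, were named after their values were seen. The 4 arrays per group limit the precision. Scan dates and batches were not used here. Alternatives changed the array scaling (quantiles or medians), the genes tested (without dim ones, all rows), the choice of rows (their mean), the variance (trended and robust, or with array weights), the block (mouse number) or the arrays (without each in turn, or without sham mice 2 and 3). Plots used matplotlib 3.10.9.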

Additional observations from a re-analysis of the deposited data

Results flagged for a closer look

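Among the 18 groups of 4 arrays of the 9 genes, 2 held an array far from the other 3, judged by its gap to the nearest array as a share of the group's range, above Dixon's critical value for 4 values. Chance gives about 1 such array in 20 groups. For Elovl1, sham mouse 4 stood at 9.27 against 9.10 to 9.11 in the other 3 sham mice, a share of 0.936 of a narrow range. For Elovl7, irradiated mouse 2 stood at 4.01 against 4.48 to 4.52 in the other 3 irradiated mice, a share of 0.913.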

How the results depend on the processing

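No gene passed the adjusted threshold in limma in the analysis as reported (0 genes; 1347 at an unadjusted p under 0.05) or under 16 of the 17 alternatives. Leaving out irradiated mouse 1 let 1 gene pass, H2ac15, a histone gene, so the range with each array left out was 0 to 1. The median difference of the 9 genes, -0.22, was -0.13 without sham mice 2 and 3 and ranged from -0.34 (without sham mouse 1) to -0.15 (without sham mouse 3) with each array left out. All members tested were lower except under 3 alternatives: 8 of 9 without irradiated mouse 2 (Fasn higher) or without sham mouse 3 (Fads2 higher), and 7 of 9 without sham mice 2 and 3 (Scd1 and Fads2 higher). With dim genes removed, 12286 genes were tested, 801 had an unadjusted p under 0.05 and 493 did not overlap, against 1347 and 816; Elovl7 was then not tested. Genes without overlap numbered 1415 to 1609 with 1 array left out and 3526 with 2, as fewer arrays allow. The mouse numbers do not pair the arrays by any label, and 0 of 4 irradiated arrays correlated best with the sham array of its own number. With the replicate block 0 genes passed, 1065 had an unadjusted p under 0.05, and the median of the 9 genes was -0.22. The 28 named genes gave 471 values under the alternatives, of which 2 moved by more than the SD between mice, those of Acsl6 and Fabp4. Over all genes the 95% interval extended, at the median, 0.30 (log2) each way. The width differed between genes, at 0.23 each way for Acaca and 0.65 for Fads1. A difference smaller than this value for its own gene has an interval that includes 0.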
